A study of Mus with 2 samples.

Results

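The 8 genes of the suppressor of cytokine signaling (SOCS) family, *Cish* and *Socs1* to *Socs7*, were examined in mouse bone marrow derived macrophages (BMDMs) treated with an agonist of the farnesoid X receptor (FXR). Every non-control probe whose RefSeq transcript belongs to one of these genes was taken, which gave 11 probes and 20 spots, out of 39429 probes and 43020 spots on the array. The array carried a probe for 20144 named genes, of which 13532 had a probe that stood well above background on either or both arrays. All 8 SOCS genes were among the 13532, and all 20 of their spots were well above background on both arrays, with 0 spots saturated and 0 marked as uneven or as outliers.

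The cells came from the bone marrow of male C57BL6/J mice aged 10 weeks, were grown for 7 d in 10 ng/mL of M-CSF, and were then held under M2 conditions, in other words with 10 ng/mL of IL-4, for 24 h. Both cultures received M-CSF and IL-4 alike, and they differed in that one was given 10 µM of GW4064, a synthetic FXR agonist, and the other DMSO, its solvent. There was 1 array for each condition and no culture without IL-4, so the values compare GW4064 with DMSO on top of IL-4. They do not show what IL-4 itself did, and a difference between cultures or arrays cannot be told apart from an effect of GW4064. With 1 array per condition no test was possible, no difference has a replicate check, and precision is limited by having so few arrays. How many mice gave the cells is not given in the sources used here.

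SOCS proteins are made in response to cytokines and shut the same signal down again. Cytokine receptors switch on Janus kinases (JAKs), which phosphorylate STAT transcription factors, and STATs then raise the transcription of SOCS genes. Each SOCS protein has an SH2 domain that binds phosphorylated tyrosines on receptors or kinases and a SOCS box that recruits elongins and a Cullin ubiquitin ligase. In macrophages, IL-4 acts through STAT6, and SOCS1 and SOCS3 are the members best known for restraining inflammatory and polarizing cytokines.

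The arrays were of the 1-color Agilent type, which measure the fluorescence of Cy3-labelled RNA bound at each probe spot. Signals below are the deposited intensities in the scanner's own units, and differences are log2 differences, GW4064 minus DMSO, after scaling each array to its own 75th percentile (a signal of 1209 under DMSO, of 1265 under GW4064). A signal depends on its probe, so signals are compared between the arrays and never between genes, apart from the sums over cell markers below. Of the probes, 399 were printed 10 times, and their copies give the error of reading 1 spot. For copies well above background at every spot, the SD of the log2 difference had a median of 0.076 over 227 probes. It was 0.126 at signals of 100 to 200 and 0.065 at signals of 1000 to 2000. The scanner software gives a wider error of its own, near 0.204 on the log2 scale for each SOCS probe. Neither holds the variation between cultures.

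GW4064-treated BMDMs had more *Socs2* mRNA, less *Socs1* mRNA, and small differences in the other 6 SOCS genes. *Socs2* was 1.75-fold higher, a log2 difference of 0.81 as the mean of its 3 probes. *Socs1* was 1.44-fold lower, a log2 difference of -0.53 from a single spot. The other 6 lay between -0.23 for *Socs3* and 0.033 for *Socs7*. None of the 8 genes reached 2-fold, a size that 2.04% of all genes measured reached upwards and 2.71% downwards. At 1.5-fold, 1 of the 8 was higher, namely *Socs2*, and 0 were lower, against 4.39% and 5.56% of all genes. With only the 12578 genes read on both arrays, the SOCS counts were the same, and the shares of all genes were 0.851% and 1.3% at 2-fold and 2.42% and 3.43% at 1.5-fold, higher and lower.

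**Figure D1:**
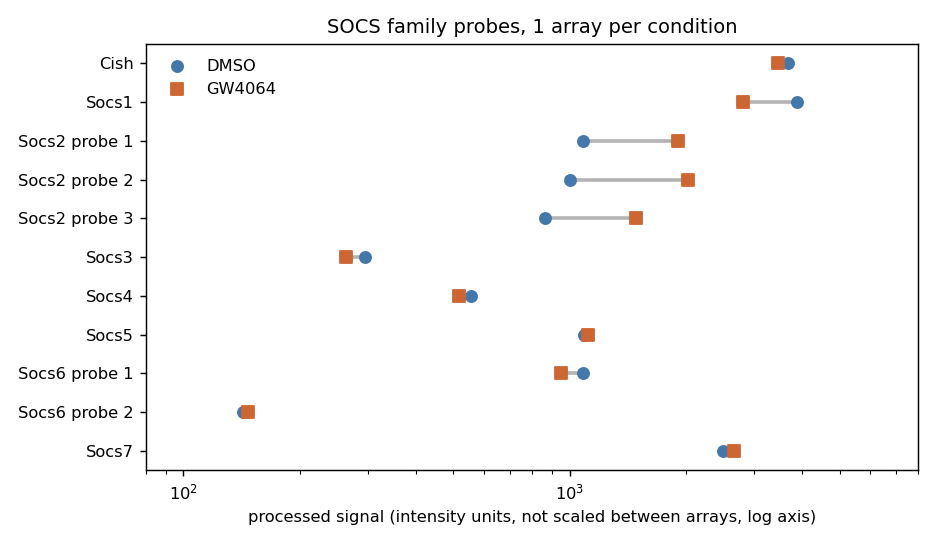
Processed signal of each SOCS family probe (log axis, intensity units, not scaled between arrays) on the DMSO array (circles) and the GW4064 array (squares), 1 array per condition, with the 10 copies of *Socs2* probe 1 shown as their geometric mean. The 3 *Socs2* probes lie to the right with GW4064, the *Socs1* probe lies to the left (3882 and 2814), and the pairs of the other genes lie close together.

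*Socs2* encodes a member best known for limiting growth hormone signaling, and its transcription is raised by STAT5. It was the best measured gene of the family, with 3 probes (all matched to NM_007706) and 12 spots on each array. At the probe printed 10 times, the signal on the DMSO array was 934 at the lowest copy, 1087 at the median and 1203 at the highest. On the GW4064 array the same copies gave 1744, 1907 and 2002. These copies are spots of 1 probe on 1 array per condition. Their spread is the error of reading a spot and does not hold the variation between cultures. The log2 difference was 0.75 ± 0.096 (SD, n = 10 spots), between 0.59 and 0.94, and all 10 copies were higher. The coefficient of variation of the signal over copies was 6.23% with DMSO and 4.04% with GW4064.

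The other 2 *Socs2* probes gave the same direction. One had signals of 1005 with DMSO and 2019 with GW4064 (log2 difference 0.94), and the other 861 and 1487 (0.72). All 12 spots were past 1.5-fold and 0 of 12 past 2-fold. The SD over the 3 probes was 0.118, close to the median of 0.108 over the 529 genes that had 3 or more probes well above background on both arrays. Of these 529 genes, 4 had every probe 1.5-fold or more higher with GW4064 under the same scaling (0.756%), and *Socs2* was one of them. Ranked by the log2 difference, *Socs2* stood at place 383 from the top of 13532 genes, and at place 178 of 12578 when only probes well above background on both arrays were used. The difference was 3.95 times the error given by the scanner software and 12.3 times the median SD over copies at this signal.

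**Figure D2:**
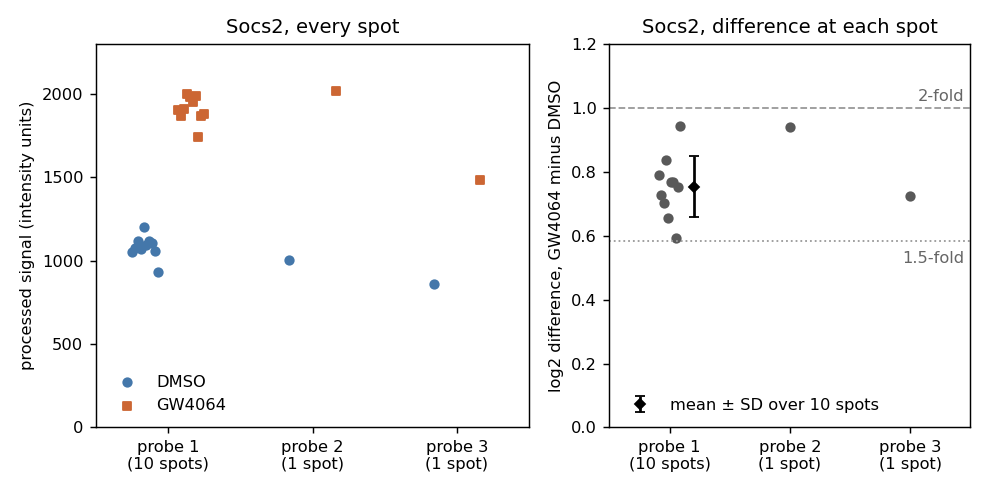
*Socs2* at each of its 12 spots. Left, processed signal (intensity units, axis from 0) on the DMSO array (circles) and the GW4064 array (squares). Right, log2 difference at each spot, with the mean ± SD over the 10 copies of probe 1 (0.75 ± 0.096) and lines at 1.5-fold and 2-fold. Every spot lies between the lines.

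*Socs1* encodes the member that binds and blocks JAKs directly, and STAT6 is among the factors known to raise it. Its probe, matched to NM_009896, was printed once. The signal was 3882 with DMSO and 2814 with GW4064, a log2 difference of -0.53. This was the lowest value of the family and stood at place 847 from the bottom of 13532 genes. It was 7.10 times the median SD over copies at this signal and 2.60 times the error given by the scanner software.

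The *Socs1* spot lay in an area of the slide where single spots were disturbed. Of the other spots within 300 µm, 13 differed 8-fold or more between the arrays, and all 13 were brighter on the DMSO array. Their signals there had a median of 59.5 and a maximum of 1181, against a drop of the *Socs1* signal from 3882 to 2814. In the 5 rows and columns around the spot, the 11 spots well above background on both arrays had a median log2 difference of -0.13, below the 5th percentile (-0.12) of such local medians over the slide. The part of the surface in the *Socs1* value was not tested, and no other probe for the gene was on the array. Areas with 2 or more other such spots within 300 µm are called disturbed areas below and held 16.5% of all spots and 6 of the 20 SOCS spots. They held the *Socs2* probe with a log2 difference of 0.72 and the *Socs2* copy with 0.70. Local medians ran from -0.12 to 0.17 around the *Socs2* copies, against a 95th percentile of 0.15 over the slide. They were 0.13 around the *Socs2* probe with 0.94 and -0.024 around the one with 0.72.

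*Cish* encodes CIS, which occupies STAT5 docking sites on cytokine receptors, and it is a STAT5 target like *Socs2*. Its signal was 3667 with DMSO and 3472 with GW4064, a log2 difference of -0.14 that was 1.93 times the median SD over copies and 0.708 times the error given by the software. *Socs2* and *Cish* thus had values on opposite sides of 0, 0.81 and -0.14, the latter smaller in size than the software error. *Socs3* encodes the member that blocks signaling from gp130, the receptor chain shared by IL-6 and related cytokines, and is raised by STAT3. It gave 294 with DMSO and 263 with GW4064, a log2 difference of -0.23, or 1.17-fold lower. This difference was 2.39 times the median SD over copies at that signal and 1.12 times the software error. *Cish* and *Socs3* were each read at 1 spot, outside the disturbed areas.

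*Socs4* to *Socs7* encode the members with long N-terminal regions, of which SOCS4 and SOCS5 are linked to the EGF receptor and SOCS6 and SOCS7 to insulin signaling. *Socs4* had signals of 554 and 518 with DMSO and GW4064 and a log2 difference of -0.16. *Socs5* had 1089 and 1116 and a log2 difference of -0.031, less than the median SD over copies. *Socs7* had 2489 and 2664 and a log2 difference of 0.033, again less than that SD. These 3 genes were each read at 1 spot, and the spot for *Socs7* lay in a disturbed area.

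The 2 probes for *Socs6*, both matched to NM_018821, did not give the same value. The brighter one fell in signal from 1086 to 948, a log2 difference of -0.26. The dimmer one had 142 with DMSO and 147 with GW4064, a log2 difference of -0.021. Both spots lay in disturbed areas, each with 2 spots that differed 8-fold within 300 µm. Around the brighter probe, the 11 neighboring spots well above background on both arrays had a median log2 difference of -0.40, larger in size than the value of the probe itself. Around the dimmer probe, the 10 such spots had a median of 0.14. The mean over both probes was -0.14, 1.12 times the median SD over copies at the signal of the dimmer probe. The difference at the brighter probe alone was 3.98 times the median SD at its own signal.

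**Figure D3:**
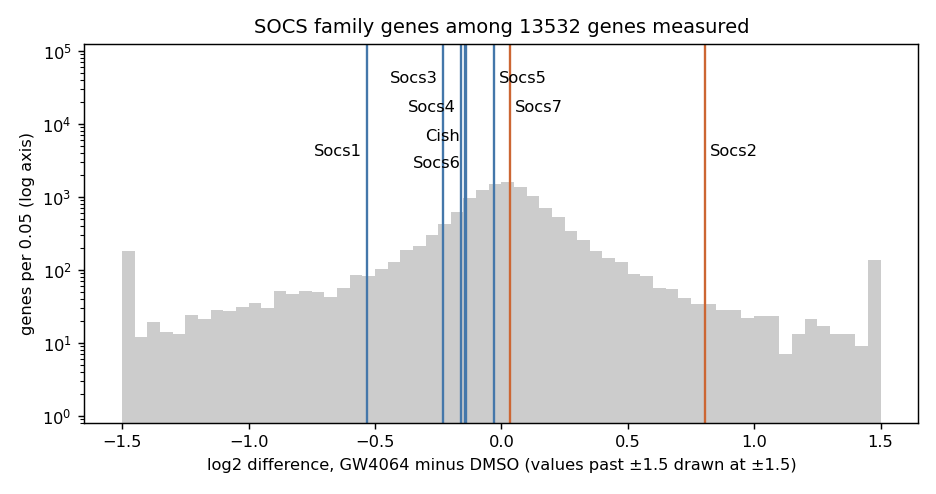
Number of genes (log axis) by log2 difference, GW4064 minus DMSO, for the 13532 genes measured, with vertical lines at the 8 SOCS family genes, 1 array per condition. *Socs2* (0.81) lies in the upper tail and *Socs1* (-0.53) in the lower tail, and the other 6 lie within the central peak.

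As a family, 2 genes were higher and 6 lower, with a median log2 difference of -0.14, against 51.6% of all genes higher and a median of 0.0068 over all genes. Of the 8 values, 5 lay within 0.20 of 0. Many other genes had values this small. Of all genes measured, 29.0% had a larger difference in either direction than *Socs3* (-0.23), and 41.0% a larger one than *Socs4* (-0.16). The median size of a difference, without its sign, was 0.15 over the family and 0.12 over all genes. Counted from the lowest of the 13532 genes, *Socs3* stood at place 1975, *Socs4* at 2711, *Cish* at 2937, *Socs6* at 3017 and *Socs5* at 5611, while *Socs7* stood at place 5951 from the highest. *Socs1* and *Socs2* were 1.34 apart on the log2 scale. They were the members whose difference was larger than the error given by the scanner software by more than 2 times.

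The values depend on how the arrays are set to each other. When the 8 spike-in control probes, RNA added in known amounts, were set equal in place of the 75th percentiles, every value fell by 0.19. *Socs2* then had 0.62 and *Socs1* -0.72. *Socs1* was thus 1.5-fold or more lower, as were 8.47% of all genes under that setting. *Socs2* was still past 1.5-fold higher as the mean of its 3 probes, as were 2.99%. Of these probes, those with 0.75 and 0.72 under the 75th percentile fell below 1.5-fold, and the one with 0.94 stayed past it. No SOCS gene reached 2-fold there, against 1.56% of all genes higher and 3.86% lower. *Socs7* changed sign to -0.16, and 7 of the 8 genes were lower. Over all genes the median was -0.18 under that setting, and 17.9% were higher. *Socs2* was higher and *Socs1*, *Socs3*, *Socs4*, *Socs5*, *Socs6* and *Cish* were lower in every setting that measured them. Settings on marked spots and on dim probes could not change these values, because no SOCS spot was marked or dim.

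**Figure D4:**
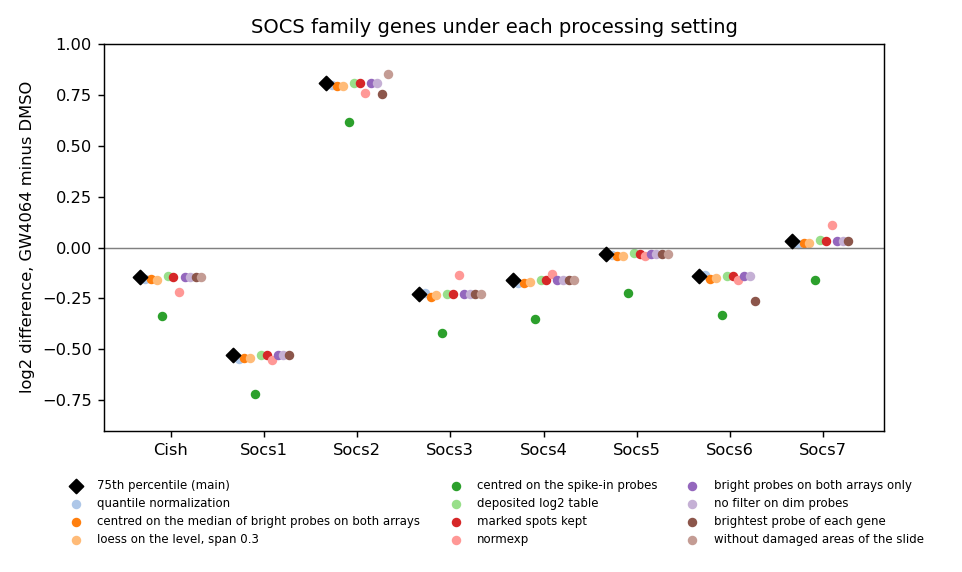
Log2 difference, GW4064 minus DMSO, of each SOCS family gene under 12 processing settings, with the reported setting as a diamond. *Socs2* stays between 0.62 and 0.85 and *Socs1* between -0.72 and -0.53; *Socs1*, *Socs6* and *Socs7* have no point without the damaged (disturbed) areas because all of their spots lie in them.

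The genes around the family were taken as 10 lists, covering the receptors, ligands, kinases and STATs that SOCS proteins act on, their ligase partners, other inhibitors and the targets of STAT3, STAT5 and STAT6. Among JAKs and STATs, 11 of 11 genes were measured, 0 were 2-fold changed in either direction, and 10 were lower and 1 higher. *Jak2*, the kinase used by the growth hormone and IL-3 receptors, had the lowest value, with signals of 4212 and 3347 and a log2 difference of -0.40. *Jak1*, *Jak3* and *Tyk2* had -0.16, -0.18 and -0.14. *Stat6*, which carries the IL-4 signal, had -0.010 over 3 probes.

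*Stat5a* and *Stat5b*, which raise *Socs2* and *Cish*, had log2 differences of -0.16 and -0.068. *Stat3*, one of whose 2 probes was printed 10 times, had -0.13, and *Stat2* had -0.21. *Stat4*, the 1 that was higher at 0.37, had signals of only 18.6 and 25.1, and its value was -0.13 after a normexp background correction. The median of the list was -0.14, the same as that of the SOCS family to 2 decimals.

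The ligase partners that the SOCS box recruits gave 10 of 10 genes above 0, with a median of 0.048 and 0 genes at 2-fold. *Cul5*, the Cullin that SOCS proteins use, had signals of 696 and 864 and a log2 difference of 0.25 at a spot in a disturbed area. The elongins *Elob* and *Eloc* had 0.023 and 0.14, and the ring proteins *Rnf7* and *Rbx1* had 0.10 and 0.11. Every *Rbx1* probe lay in a disturbed area, and 8 of the 10 genes could be measured without these areas. *Cul2* had 0.036, *Ube2f* 0.019, *Ube2m* 0.053, *Nedd8* 0.0044 and *Arih2* 0.042. With the spike-in probes set equal, 9 of the 10 were lower and *Cul5* alone was higher, at 0.055, so the direction of this list rests on the scaling.

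Of the cytokine receptors that signal through JAKs, all 26 listed genes were measured, 13 higher and 13 lower, with a median of 0.0034. With the spike-in probes set equal, 2 were higher and 24 lower, with a median of -0.19. *Il21r*, the receptor of IL-21, was the 1 gene at 2-fold, with signals of 400.2 and 881 and a log2 difference of 1.07, or 0.88 with the spike-in probes set equal. Of 24 ligands of these receptors, 16 were not well above background on either array, among them *Il6*, *Il13*, *Ifng* and *Csf2*. *Il10*, an anti-inflammatory cytokine, had a mean signal of 45.5 over its spots with DMSO and of 16.8 with GW4064, where it was not well above background. Its log2 difference, from the means of its log2 values, was -1.60, which is a bound because *Il10* was dim with GW4064. After the normexp correction its log2 difference was -0.50. *Thpo* was at least 2.94-fold higher on 1 of 2 probes, at a spot in a disturbed area, while the remaining *Thpo* probe was dim on both arrays. After the normexp correction *Thpo* had 0.74, below 2-fold.

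Other inhibitors of JAK-STAT signaling, such as phosphatases and PIAS proteins, had 15 of 15 genes measured, 4 higher and 11 lower, and 0 at 2-fold. Other SOCS box proteins had 19 of 28 genes measured, 9 higher and 10 lower, also with 0 at 2-fold. Their medians were -0.021 and -0.0048. Of 17 proteins that SOCS proteins are known to bind or degrade, 3 were higher and 14 lower, with a median of -0.16. The 1 at 2-fold was *Flt3*, a receptor kinase of early blood cells, at least 4.94-fold higher on 1 of 2 probes, with a signal of only 81.5 on the GW4064 array and a spot in a disturbed area. After the normexp correction *Flt3* had 0.72, below 2-fold.

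Targets of the STATs did not move as 1 block. STAT5 targets outside the SOCS family had 15 of 16 genes measured, 6 higher and 9 lower, a median of -0.035, and 0 at 2-fold in either direction. STAT6 targets had 22 of 26 measured, 13 higher and 9 lower, a median of 0.052, 7 genes at 1.5-fold or more higher and 0 lower, against 4.39% and 5.56% of all genes. With the spike-in probes set equal, 9 were higher and 13 lower, with a median of -0.14. The 2 STAT6 targets at 2-fold were *Arg1*, the arginase that marks M2 macrophages, with signals of 4875 and 72297 and a log2 difference of 3.82, and *Tgm2*, a transglutaminase, with 2.30 over 2 probes. STAT3 targets had 20 of 20 measured, 9 higher and 11 lower, and 2 at 2-fold, *Vegfa* with 1.28 over 2 probes and *Saa3* with 2.35, the latter from signals of 31.4 and 168 at a spot in a disturbed area. With the spike-in probes set equal, every other list named here also had more genes lower than higher.

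**Figure D5:**
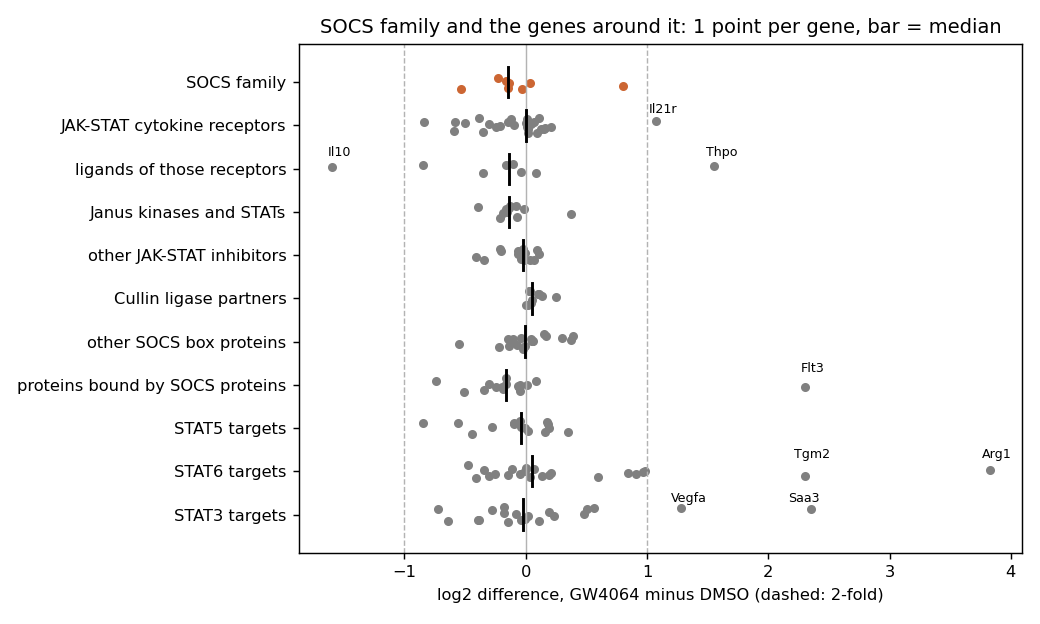
Log2 difference, GW4064 minus DMSO, of each measured gene of the SOCS family (top row) and of 10 lists around it, 1 point per gene and a bar at each median, 1 array per condition. Genes at 2-fold or more are named, and *Il10*, *Thpo* and *Flt3* were not well above background on 1 of the arrays. The medians lie between -0.16 and 0.052.

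The macrophage label was checked with 10 marker genes, of which 9 had a probe and all 9 were well above background on both arrays, with a median log2 difference of 0.058. Markers of other cells differed as well. Of all genes measured, 5.56% were 1.5-fold or more lower with GW4064. Summed signals below take the brightest probe of every listed gene, including genes not well above background. The sums are not scaled between arrays, and the brightest genes weigh most in them. Of 10 stromal markers, 9 were measured and 8 were lower with GW4064, 5 of them 1.5-fold or more. The stromal markers had a median log2 difference of -0.72 and a summed signal of 37174 with DMSO and 21104 with GW4064. Of 10 neutrophil markers, 8 were measured and 7 were lower, 4 of them 1.5-fold or more, with a median log2 difference of -0.62. Their summed signals were 72431 and 70732, most of which came from *Csf3r* (58516 and 61730). Of 7 dendritic cell markers 4 were measured, 3 higher and 1 lower, with summed signals of 12497 and 13490. Of 7 T and NK cell markers 3 were measured, 1 higher and 2 lower, with summed signals of 1701 and 1521. Mast cell and basophil markers had 3 of 6 measured, 1 higher and 2 lower, the latter by 1.5-fold or more. Their median log2 difference was -0.74, and their summed signals were 187 on both arrays. Erythroid markers had 2 of 4 measured, both lower, with summed signals of 85.7 and 19.0. B cell markers had 1 of 4 measured, which was lower, with summed signals of 59.6 and 21.2. *Cd79a*, *Cd3g* and *Cd8a*, which define B and T cells, were dim on both arrays. *Cd3e* (209 and 248) was well above background on both, and *Ms4a1* (35.8) was with DMSO. The probes for *Cd4* did not give the same reading. One, read at 1 spot, was well above background on both arrays (1303 and 1228). The other, read at 9 spots, was dim on both (10.3 and 11.5). *Klrb1c* had a signal of 175 with DMSO at a probe not well above background with GW4064, and was above it on both arrays at its other probe (45.5 and 33.0). SOCS genes are expressed in many cell types, and the part of these other cells in the SOCS values was not tested. In RNA from a whole culture, fewer cells of a type and less RNA per cell cannot be told apart.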

How the data were processed

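Gene expression in 2 cultures of BMDMs was read on 1-color Agilent mouse arrays, 1 per condition. Groups came from the treatment labels; the free-text description of the GW4064 sample repeats that of the DMSO sample, while its title and treatment name GW4064. The deposited files hold the intensity of each spot, made by the authors with Feature Extraction 10.7.1.1 by subtracting background and removing trends within the array, without scaling between arrays. The deposited log2 table holds values of the same arrays, shifted per array and centered per probe on a baseline not given in the sources used here. Its difference between arrays equalled the one computed here for 39200 probes apart from a constant of 0.0022.

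The log2 of the processed intensity minus the 75th percentile over non-control spots was taken. Spots marked as uneven or as outliers were left out, and spots of 1 probe were averaged. A probe counted as well above background where more than 50% of its spots were. Where a probe was dim on 1 array, its value there was replaced by the minimum among well-above-background probes if that was higher, so that the difference is a bound. Probes of a gene were averaged. Symbols came from RefSeq accessions of GRCm38.p6, which named 26445 probes. The array design names another build, so no coordinates are given, and no sequences were printed because none were at hand.

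The SOCS family, the 10 lists of related genes and the 8 lists of cell markers were chosen with earlier results of these data known. The rule for names took every SOCS gene, members of the lists of related genes at 2-fold or more, and all members of such lists of up to 11 genes, apart from items that are not reported here. With 2 arrays a gene has 1 difference, so no genes were ranked by likeness of pattern. The cell markers named, the ligands named as unread and the receptors named under other observations were picked after their values were seen. The calculation was tested on simulated data. Alternatives were quantile normalization, centering on the median or on spike-in probes, loess (span 0.3), the deposited table, marked spots kept, normexp (offset 50) on the median intensity, other filters, the brightest probe, a 1.5-fold threshold, and leaving out disturbed areas. The normexp correction ran in limma 3.58.1 under R 4.3.3, and the rest in Python 3.11.15 with pandas 2.3.3, numpy 2.4.6, matplotlib 3.10.9 and statsmodels 0.14.6.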

Additional observations from a re-analysis of the deposited data

How the results depend on the processing

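No paired analysis was possible because DMSO and GW4064 were each measured on a single array, and so no array could be left out either. Of 120 values recomputed for the SOCS family under the alternatives, 12 moved by more than the spread of copied spots or to another count, and 1 changed sign. Some alternatives could not move a value. No SOCS spot was marked or dim, so keeping marked spots and changing the filters on dim probes returned the same values. The deposited table differed by a constant, and among single genes the brightest probe could change only *Socs2* and *Socs6*. Setting the spike-in probes equal moved the median of the family from -0.14 to -0.33 and turned *Socs7* to -0.16; by construction it lowers every gene alike. With a threshold of 1.5-fold in place of 2-fold, the number of SOCS genes higher was 1 in place of 0. The number 2-fold lower was 0 under each alternative. Without the disturbed areas of the slide, *Socs1*, *Socs6* and *Socs7* could not be measured, and *Socs2* had 0.85 from its remaining spots. Each value other than that of *Socs2* and *Socs6* rests on 1 spot per array.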

Other observations

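Receptors that single SOCS proteins are known to act on had values of their own. *Ghr*, the growth hormone receptor that SOCS2 restrains, had a log2 difference of -0.58, with -0.49 and -0.67 at its 2 probes and signals of 154 and 63.9 with DMSO. After the normexp background correction it was -0.25. *Prlr*, the prolactin receptor, gave opposite directions at its probes, -0.72 at one and at least 2.20-fold higher at the other, which was not well above background with DMSO and lay in a disturbed area of the slide. *Il6st*, which encodes gp130, the chain bound by SOCS3, had signals of 5845 and 5155 and a log2 difference of -0.25. *Il4ra*, the IL-4 receptor chain, had -0.15 at both of its probes. These 4 genes were picked after their values were seen, and each value rests on 1 array per condition.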
